A study of Mus musculus with 8 samples.

Results

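The TNF superfamily ligands and receptors were described in mouse heart RNA across 2 genotypes and 2 surgeries. Members were the protein-coding genes whose symbol was Tnf or began with Tnfsf or Tnfrsf and a number. This rule used no expression value and took 32 genes, 12 ligands and 20 receptors, of the 54532 genes listed, 22046 of which were protein-coding. Of the 32, 19 reached 0.5 FPKM in 2 libraries (5 ligands and 14 receptors), and these 19 were tested. FPKM is fragments per kilobase of gene, scaled here to library size, so levels can be compared between genes. The hearts came from C57BL/6 mice, either wild type (WT) or Piezo1-Cko (Cko), after sham surgery or TAC, with 2 libraries in each of the 4 groups. TAC, which usually stands for transverse aortic constriction, puts the left ventricle under pressure by tightening the aorta, and sham surgery leaves the aorta open. Piezo1 encodes a mechanically gated cation channel; the Cko label names the targeted gene, while the cells, the exons and the driver of the deletion, and the age, sex and time after surgery, are not given in the sources used here. Separate animals are not stated either: a p-value here measures the spread between these libraries, and that spread may be technical.

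Ligands of this family are trimeric proteins, most of them made in the cell membrane and released by proteases. They bind receptors with cysteine-rich repeats, which recruit TRAF adaptors that lead to NF-kappaB, or death-domain adaptors that lead to caspases and to the kinases of necroptosis. Some receptors are decoys that bind a ligand without signalling. In the heart the family is known for TNF itself, for TWEAK (the product of Tnfsf12) with its receptor Fn14 (Tnfrsf12a), and for the RANK ligand system with its soluble decoy osteoprotegerin (Tnfrsf11b).

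The libraries held 15574769 to 17313084 reads. Piezo1 itself was at 2.35 and 3.09 FPKM in WT sham, 5.38 and 5.83 after TAC in WT, 3.83 and 3.24 in Cko sham, and 5.24 and 3.89 after TAC in Cko; without the deleted exons or cells this does not check the genotype. Markers of heart muscle were abundant in every library, with the 7 cardiomyocyte markers summing to 16730 to 18400 FPKM in sham and 10090 to 12570 FPKM in TAC. The 9 macrophage markers summed to 398 to 470 FPKM in sham and 618 to 988 FPKM in TAC, and the 7 fibroblast markers to 186 to 298 and 263 to 520 FPKM. In whole tissue, fewer cells of a type and less RNA per cell cannot be told apart. WT TAC replicate 1 stood apart in the sum of its 9 B and plasma cell markers, 308 FPKM against 12.2 to 36.2 FPKM in the others. Igkc (272 FPKM) and Jchain (22.5 FPKM) made up most of that sum. Ighm, Cd79a, Cd79b and Mzb1 did not stand apart there, each being higher in another library. The clock output gene Dbp was at 1.94 to 3.22 FPKM in WT sham replicate 1, WT TAC replicate 1 and Cko sham replicate 1, and at 23.0 to 51.1 FPKM in the other 5 libraries. Results are therefore also given for those 5 libraries, a setting chosen after seeing the data, which leaves 1 library in 3 of the groups.

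A few receptors and a pair of ligands made up most of the family's RNA. Tnfrsf12a had the highest mean level over the 8 libraries, 65.2 FPKM, followed by Tnfrsf1a (TNF receptor 1) at 40.4, Tnfsf12 at 9.07, Tnfsf10 (TRAIL) at 7.71 and Tnfrsf21 (death receptor 6) at 5.67 FPKM. The gap between the first pair came from the TAC libraries: the ratio of Tnfrsf12a to Tnfrsf1a FPKM was 1.03 to 1.315 in the 4 sham libraries, 3.115 and 2.04 after TAC in WT, and 1.575 and 1.21 after TAC in Cko. Among the following 3 genes, Tnfsf12 and Tnfsf10 exchanged places between libraries. Tnfrsf12a and Tnfrsf1a together gave 75.0% to 86.1% of the summed receptor FPKM, and Tnfsf12 and Tnfsf10 gave 78.6% to 91.9% of the summed ligand FPKM. Receptor RNA summed to 77.4 to 104 FPKM in the 4 sham libraries and to 133 to 204 FPKM in the 4 TAC libraries. Without Tnfrsf12a the sums still did not overlap, at 47.2 to 60.3 FPKM in sham and 71.0 to 84.5 FPKM in TAC. Ligand RNA summed to 15.5 and 14.9 FPKM in WT sham, 15.7 and 18.6 after TAC in WT, 23.65 and 22.2 in Cko sham, and 21.35 and 24.05 after TAC in Cko. These sums carry no test.

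**Figure D1:**
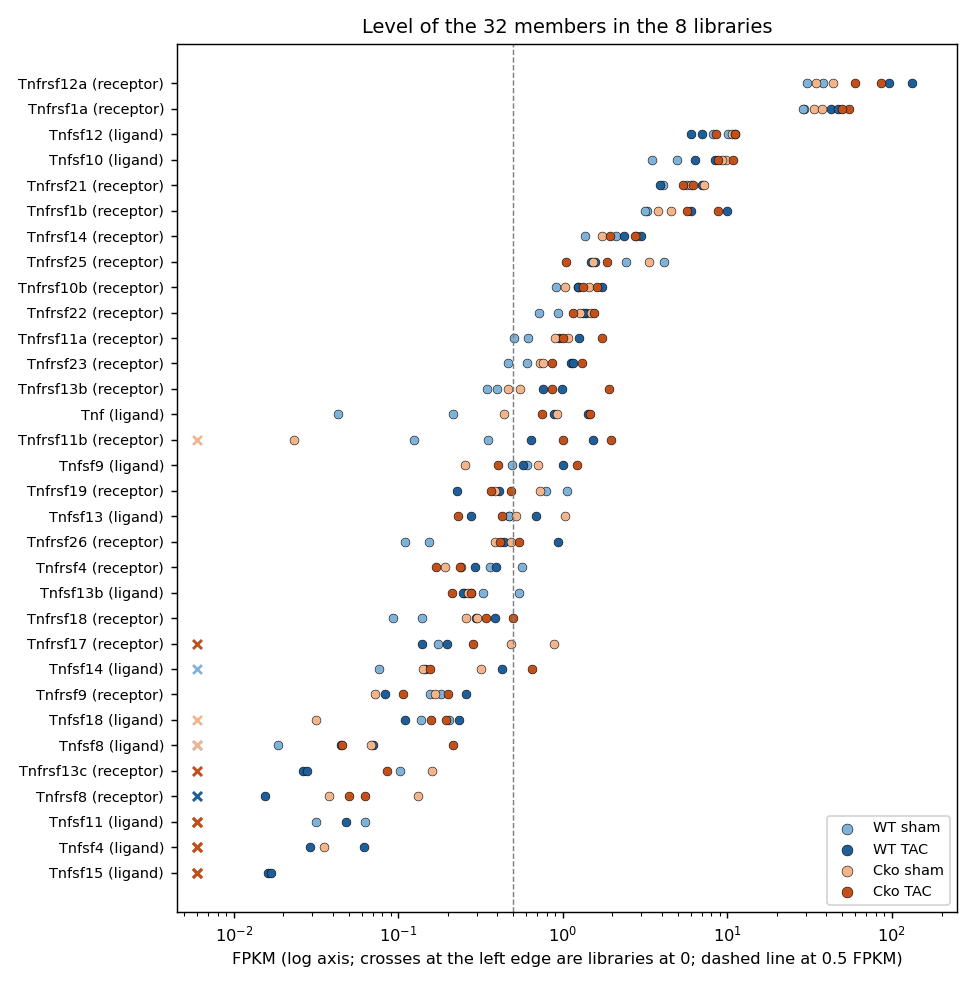
FPKM of the 32 members, ordered by mean level, in each of the 8 libraries (points, coloured by group; the x axis is logarithmic, and crosses at its left edge are libraries at 0). Tnfrsf12a and Tnfrsf1a lie above 28 FPKM in all libraries, 11 members lie above 0.5 FPKM (dashed line) in all 8, and 13 reach it in at most 1 library.

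Among the 13 untested members were 7 ligands and 6 receptors. Of these, 9 stayed under 0.5 FPKM in all 8 libraries, and 9 were at 0 in at least 1 library. Tnfrsf4, Tnfsf13b, Tnfrsf17 and Tnfsf14 reached 0.5 FPKM in 1 library each, just outside the rule for testing. Just inside it, Tnfrsf26 reached 0.936 and 0.539 FPKM in its top pair of libraries. Tnfsf4, Tnfsf8 and Tnfsf18, ligands that act on T cells, stayed at or below 0.234 FPKM. The T and NK cell markers summed to 1.84 to 5.59 FPKM per library.

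Promoters are shown for 3 of the 5 members called higher after TAC in wild type (below), because their start regions differ in composition. The letters are the 250 bases before the RefSeq transcription start (GRCm38.p6), all on the minus strand and printed 5′ to 3′. They lie at chr17:23677450-23677699 for Tnfrsf12a, chr4:145246871-145247120 for Tnfrsf1b and chr17:35202008-35202257 for Tnf. Capitals mark matches, on either strand, to GGGCGG (GC box), TATAAA (the TATA box) or GGAATG (bound by TEAD factors).
Tnfrsf12a: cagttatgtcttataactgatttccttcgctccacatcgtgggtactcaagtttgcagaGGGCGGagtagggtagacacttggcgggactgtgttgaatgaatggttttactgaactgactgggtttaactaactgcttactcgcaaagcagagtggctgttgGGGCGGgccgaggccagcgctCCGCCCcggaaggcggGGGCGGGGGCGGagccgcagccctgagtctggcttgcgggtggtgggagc
Tnfrsf1b: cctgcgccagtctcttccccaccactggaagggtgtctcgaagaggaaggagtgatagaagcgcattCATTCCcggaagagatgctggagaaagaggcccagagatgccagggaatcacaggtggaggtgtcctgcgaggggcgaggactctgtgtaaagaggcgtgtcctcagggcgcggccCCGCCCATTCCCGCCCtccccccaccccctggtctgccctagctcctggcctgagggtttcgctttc
Tnf: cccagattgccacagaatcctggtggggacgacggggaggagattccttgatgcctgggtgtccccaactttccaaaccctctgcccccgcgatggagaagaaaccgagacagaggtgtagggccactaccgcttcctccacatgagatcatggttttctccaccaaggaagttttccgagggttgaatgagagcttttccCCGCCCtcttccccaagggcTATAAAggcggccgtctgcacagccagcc

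The Tnfrsf12a window held 5 GC boxes and no TATA box. The Tnfrsf1b window held 2 TEAD matches, which began 183 and 62 bases before the start, and the nearer one overlapped 2 GC boxes. The Tnf window held 1 TATA box, 29 bases before the start, and 1 GC box. Tnfrsf1a and Tnfsf10, also called in wild type, are not printed because their RefSeq starts lie 361 and 49 bases inside the listed genes. Their windows held no match to any of the 6 motifs searched. RefSeq windows matched 25 of the 32 members by symbol, 29 windows in all. A GC box was in 12 of these 29, a TATA box in 5 and a TEAD match in 5, and over all 32851 mouse windows of this length the shares were 32.7%, 12.4% and 12.6%. The AP-1 letters TGANTCA were in 5 of the 29 (6.75% of all windows), an NF-kappaB motif in 2 (3.9%) and a CArG box in 1 (1.47%). None of the 3 printed windows held one of the last 3 motifs. A match is a description of letters, not of binding.

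After TAC, wild-type hearts had more RNA of 3 receptors and 2 ligands, and no member was called lower. The 5 were Tnfrsf12a, Tnfrsf1a, Tnfrsf1b, Tnf and Tnfsf10. They are 5 of 19 tested members; over all 13928 tested genes, 5.57% were called higher and 7.65% lower by the same rule, limma with a Benjamini-Hochberg adjusted p under 0.05. The median log2 fold change of the 19 was 0.59, against 0.01 for all tested genes, and 15 of the 19 were positive. In Piezo1-Cko hearts 1 member, Tnfrsf11b, was called higher and none lower, where 0.948% of all genes were called higher and 0.546% lower, and the members' median was 0.19 against -0.00. Averaged over both genotypes, which sets 4 TAC against 4 sham libraries, 7 members were called higher and none lower; 11.9% of all genes were called higher and 13.5% lower. Those 7 were 6 receptors (Tnfrsf12a, Tnfrsf1a, Tnfrsf11b, Tnfrsf1b, Tnfrsf13b and Tnfrsf23) and Tnf. The same 6 receptors were the members with all 4 TAC libraries above all 4 sham libraries, which held for 13.1% of all tested genes; no member had all TAC libraries below, which held for 14.6%. An unadjusted p under 0.05 was reached by 14 members in wild type, 5 in Cko and 13 in the average (73.7%, 26.3% and 68.4%). Over all tested genes the shares were 33.7%, 21.8% and 40.3%, so the Cko count lay near its share and is no result about the members. The 3 comparisons share their libraries and are not independent.

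The filter matters for these counts, because a low gene that passes it through TAC libraries had to be higher there. Tnfrsf13b, Tnf, Tnfrsf11b and Tnfrsf26 reached 0.5 FPKM in 2 TAC libraries but in fewer than 2 sham libraries. Tnfrsf19 and Tnfsf13 passed through sham libraries in the same way. The other 13 had at least 2 libraries of each kind at that level, and 4 of these 13 were called in wild type, none in Cko and 4 in the average. The single Cko call, Tnfrsf11b, is thus a member that entered the test through its TAC libraries. The same holds for Tnf in wild type and for Tnfrsf13b, Tnf and Tnfrsf11b in the average. With the 3 libraries of low Dbp dropped, no member was called in either genotype alone, and Tnfrsf12a and Tnfrsf11b were the 2 called in the average.

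**Figure D2:**
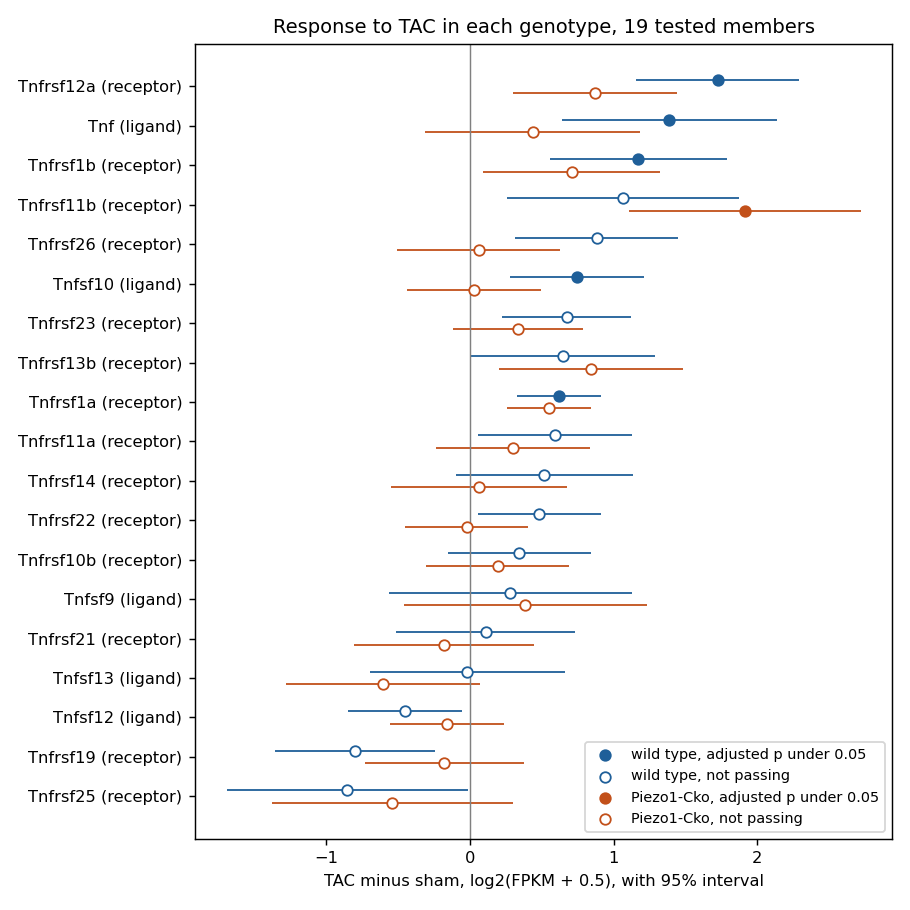
Differences between TAC and sham in log2(FPKM + 0.5) for the 19 tested members, in wild type (blue) and Piezo1-Cko (orange), with 95% intervals from limma; filled points have an adjusted p under 0.05. There are 5 filled points in wild type, led by Tnfrsf12a at 1.72, and 1 in Piezo1-Cko, Tnfrsf11b at 1.91.

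Tnfrsf12a (chr17:23675445-23677468, minus strand, mm10), the small receptor of TWEAK that signals through TRAFs and lacks a death domain, had the largest wild-type change of the 19 members on the log2(FPKM + 0.5) scale, which shrinks the changes of low members such as Tnf, Tnfrsf26 and Tnfrsf11b. It was at 30.3 and 38.0 FPKM in WT sham, 133 and 96.0 after TAC in WT, 34.4 and 44.0 in Cko sham, and 86.2 and 59.6 after TAC in Cko. All 4 TAC libraries lay above all 4 sham libraries, and both Cko TAC libraries lay below both WT TAC libraries. The group means were 34.1 ± 5.43, 115 ± 26.2, 39.2 ± 6.81 and 72.9 ± 18.9 FPKM (SD, n = 2), in that order. The rise was 3.30-fold in wild type (log2 fold change 1.72, SE 0.245, limma adjusted p = 0.0141) and 2.46-fold in the average (1.30, SE 0.173, adjusted p = 0.00468). In Cko alone the value was 1.83-fold (0.87, SE 0.245), which did not pass (adjusted p = 0.0998). In the average it passed whichever single library was left out (adjusted p at most 0.0271) and with the 5 libraries (log2 fold change 1.01, adjusted p = 0.0494). The wild-type call was lost without WT TAC replicate 1 (log2 fold change 1.49, adjusted p = 0.0713).

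Its ligand gene Tnfsf12 went the other way in value and did not pass. It was at 10.1 and 8.14 FPKM in WT sham, 6.00 and 6.99 after TAC in WT, 10.6 and 11.2 in Cko sham, and 8.485 and 11.04 after TAC in Cko. Both WT TAC libraries lay below both WT sham libraries, while the Cko groups overlapped. The log2 difference was -0.45 (SE 0.170, limma adjusted p = 0.109) in wild type and -0.16 (adjusted p = 0.626) in Cko. With scaling to library totals, a setting that raises the median gene by 0.20 in wild type and 0.19 in Cko, the Cko value was 0.039. The receptor to ligand ratio of FPKM was 3.01 and 4.67 in WT sham, 22.2 and 13.7 after TAC in WT, 3.23 and 3.94 in Cko sham, and 10.2 and 5.40 after TAC in Cko. Thus all 4 TAC libraries had the higher ratios, and those of Cko TAC lay between sham and WT TAC. Of the 1515 exon bases of Tnfsf12, 48.3% are shared on the same strand with Tnfsfm13, a read-through gene with Tnfsf13, so reads of these genes may have been divided in counting.

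**Figure D3:**
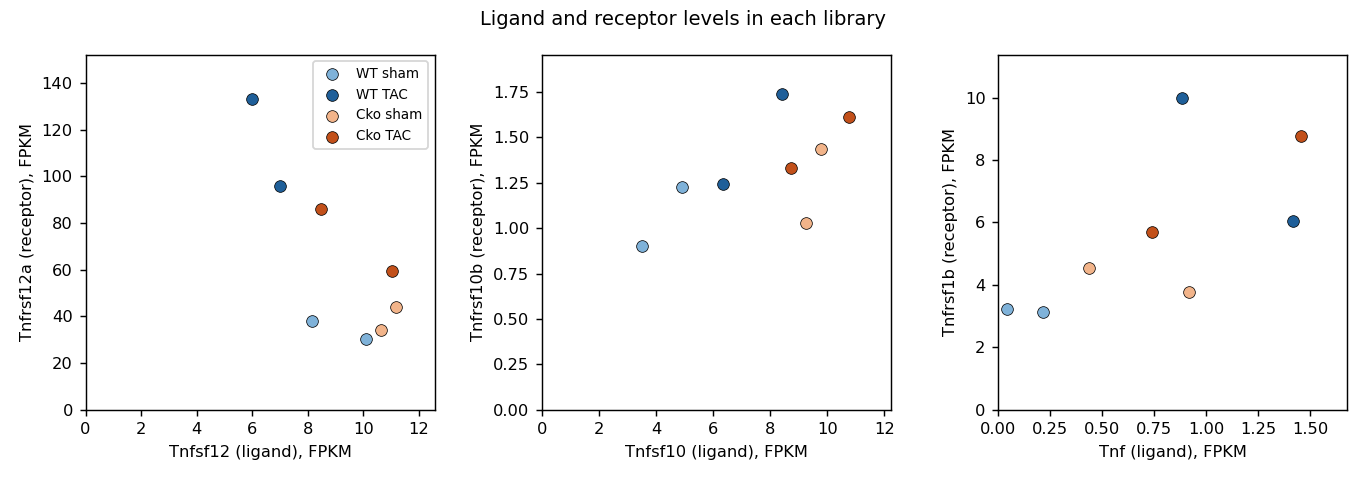
Ligand FPKM (x axis) against receptor FPKM (y axis) in each of the 8 libraries for Tnfsf12 and Tnfrsf12a, Tnfsf10 and Tnfrsf10b, and Tnf and Tnfrsf1b, coloured by group. Tnfrsf12a spans 30.3 to 133 FPKM while Tnfsf12 spans 6.00 to 11.2 FPKM, with the 2 WT TAC libraries at the upper left.

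Tnf and the genes of both its receptors were called higher after TAC in wild type and in the average. With FPKM as deposited, none of them passed in Cko. Tnfrsf1a, the death-domain receptor present on most cells, was at 29.2 and 28.9 FPKM in WT sham, 42.7 and 47.1 after TAC in WT, 33.5 and 37.3 in Cko sham, and 54.8 and 49.4 after TAC in Cko. The TAC libraries did not overlap the sham libraries in either genotype. It rose 1.54-fold in wild type (log2 fold change 0.62, SE 0.125, limma adjusted p = 0.0259) and also rose in the average (0.58, SE 0.0883, adjusted p = 0.00641). In Cko the value was 1.465-fold, which did not pass (0.55, SE 0.125, adjusted p = 0.0695). With scaling to library totals, which raises the median gene by 0.19 in Cko, Tnfrsf1a did pass there (0.76, limma adjusted p = 0.0353). The average passed in all 8 fits that left out 1 library (adjusted p at most 0.0362) but not with the 5 libraries (0.58, adjusted p = 0.0949). That call in wild type was lost without any one of the 4 WT or 2 Cko sham libraries (adjusted p up to 0.102).

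Tnfrsf1b, the receptor without a death domain, which is known from immune and endothelial cells, was at 3.22 and 3.14 FPKM in WT sham, 9.998 and 6.04 after TAC in WT, 3.76 and 4.55 in Cko sham, and 8.765 and 5.70 after TAC in Cko. Again no TAC library overlapped the sham libraries, and replicate 1 was the higher one in both TAC groups. The rise was 2.25-fold in wild type (log2 fold change 1.17, SE 0.265, limma adjusted p = 0.0332) and 1.92-fold in the average (0.94, SE 0.187, adjusted p = 0.0132), and the Cko value was 0.71 (adjusted p = 0.176). Dropping Cko sham replicate 1 ended the call in the average (adjusted p = 0.0555), as did the 5 libraries (0.72, adjusted p = 0.111). The wild-type call passed in 3 of 8 such fits and was lost without WT TAC replicate 1 or any sham library (adjusted p up to 0.137). The ratio of Tnfrsf1a to Tnfrsf1b FPKM was 8.20 to 9.21 in sham and 4.28 to 8.66 in TAC.

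Tnf was low, with 1 and 5 reads in the WT sham libraries. It reached 0.5 FPKM in 1 sham and 4 TAC libraries, so it entered the test through TAC libraries. Its p-values carry that selection, and with no filter on low values Tnf was not called in wild type, in Cko or in the average. It was at 0.0429 and 0.215 FPKM in WT sham, 0.886 and 1.42 after TAC in WT, 0.916 and 0.438 in Cko sham, and 1.46 and 0.742 after TAC in Cko. The WT groups were well separated, and the Cko groups overlapped. On the log2(FPKM + 0.5) scale, which understates changes of low genes, it rose 2.62-fold in wild type (log2 fold change 1.39, SE 0.321, limma adjusted p = 0.0348) and 1.88-fold in the average (0.91, SE 0.227, adjusted p = 0.0262). The Cko value was 0.44 (adjusted p = 0.477). The average lost its call without WT sham replicate 1, WT TAC replicate 2, Cko sham replicate 2 or Cko TAC replicate 1 (adjusted p up to 0.0851), and with the 5 libraries (1.08, adjusted p = 0.0713). The wild-type call was lost without any one of the 4 WT libraries or 2 Cko sham libraries (adjusted p up to 0.107).

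**Figure D4:**
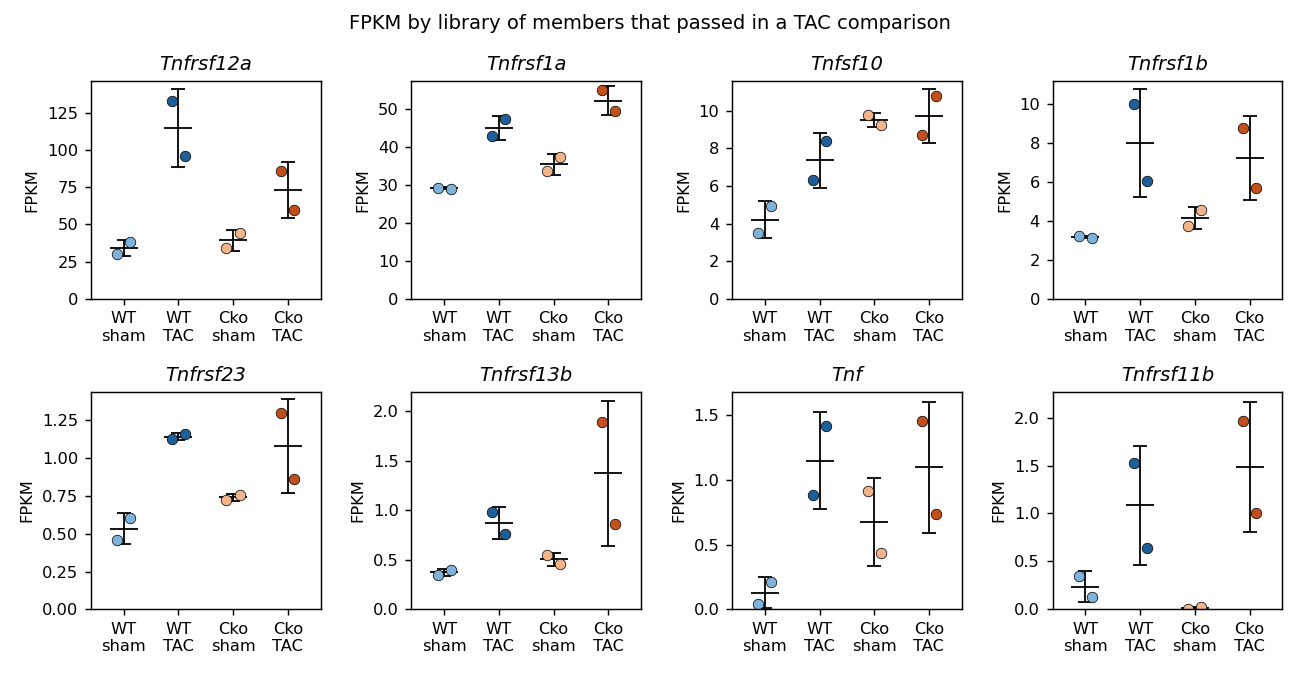
FPKM of the 8 members that passed in a comparison of TAC with sham, by group (points are libraries, horizontal bars group means and whiskers the SD of the 2 libraries). Tnfrsf12a, Tnfrsf1a, Tnfrsf1b, Tnfrsf23, Tnfrsf13b and Tnfrsf11b have all 4 TAC libraries above all 4 sham libraries; Tnf and Tnfsf10 do not.

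Osteoprotegerin, the soluble decoy of RANK ligand encoded by Tnfrsf11b (chr15:54250619-54278484, minus strand), was nearly absent from Cko sham hearts and present in all TAC hearts. It was at 0.350 and 0.125 FPKM in WT sham, 1.53 and 0.643 after TAC in WT, 0 and 0.0232 in Cko sham, and 1.96 and 1.01 after TAC in Cko. The 2 Cko sham libraries held 0 and 1 reads and the 2 Cko TAC libraries 102 and 49, a ratio of 129.5 per scaled library size with a 95% exact interval of 22.9 to 5148 that covers counting error only. With the pseudocount the Cko rise was 3.77-fold (log2 fold change 1.91, SE 0.346, limma adjusted p = 0.0483), and the average rise 2.81-fold (1.49, SE 0.245, adjusted p = 0.00778). In wild type the value was 1.06 (SE 0.346), which did not pass (limma adjusted p = 0.0791). Tnfrsf11b reached 0.5 FPKM in 0 sham and 4 TAC libraries, so it entered the test through the libraries where it was high. All its p-values, also those of the average, and the ratio of reads carry that selection. With no filter on low values, Tnfrsf11b was called in the average but not in Cko or in wild type. The average passed in all 8 fits that left out 1 library (adjusted p at most 0.0356) and with the 5 libraries (1.38, adjusted p = 0.0477). The Cko call failed without either WT sham library, either Cko sham library or Cko TAC replicate 1 (adjusted p up to 0.283), and with the 5 libraries (1.88, adjusted p = 0.116). Fibroblast collagen RNA moved in the same libraries: Col1a1 was at 12.02 to 29.0 FPKM in sham and 48.5 to 148 FPKM in TAC. Of the 7 fibroblast markers 3 (Col1a1, Col1a2 and Lum) were called higher and 1 (Dpep1) lower in the average. Over all tested genes 11.9% were called higher and 13.5% lower. Pdgfra, Dcn and Tcf21 were not called, and none of the 7 markers was at 0 in any library. Their part in the Tnfrsf11b result was not tested.

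Of the remaining genes of that axis, Tnfrsf11a was called in no comparison and Tnfsf11 was too low to be tested. RANK, the signalling receptor encoded by Tnfrsf11a, was at 0.505 and 0.612 FPKM in WT sham, 1.25 and 0.947 after TAC in WT, 1.07 and 0.895 in Cko sham, and 1.72 and 0.996 after TAC in Cko. Its log2 difference was 0.59 in wild type (limma adjusted p = 0.121) and 0.45 in the average (adjusted p = 0.0818). RANK ligand itself, Tnfsf11, had 5 reads in all: 0.0315 and 0.0630 FPKM in WT sham, 0.0481 and 0 after TAC in WT, and 0 in the 4 Cko libraries.

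TRAIL, a ligand of death receptors encoded by Tnfsf10, had the smallest p of the members between genotypes under sham, although that difference did not pass. It was at 3.50 and 4.93 FPKM in WT sham, 6.34 and 8.40 after TAC in WT, 9.79 and 9.24 in Cko sham, and 8.72 and 10.8 after TAC in Cko. The WT sham libraries were the lowest of the 8, and all 4 Cko libraries lay above all 4 WT libraries. The 6 endothelial markers, none at 0, summed to 208 and 260 FPKM in WT sham and 242 and 369.5 after TAC in WT. They summed to 383 and 386 FPKM in Cko sham, and 327 and 416 after TAC in Cko. Unlike the values of Tnfsf10, these sums overlapped between the genotypes. For TAC against sham, 5 of the 6 markers were positive in wild type and 2 in Cko, and none was called. All 6 were positive for Cko against WT under sham (median log2 difference 0.64) and none of them passed; their part in the Tnfsf10 values was not tested. In wild type it rose 1.68-fold after TAC (log2 fold change 0.74, SE 0.200, limma adjusted p = 0.0498), a call that was lost in each of the 8 fits that left out 1 library (adjusted p up to 0.169). In Cko the value was 0.03 (adjusted p = 0.956). The mouse death receptor for TRAIL, Tnfrsf10b, was at 0.903 and 1.23 FPKM in WT sham, 1.24 and 1.74 after TAC in WT, 1.44 and 1.03 in Cko sham, and 1.33 and 1.61 after TAC in Cko. Its groups overlapped in Cko but not in wild type, and its wild-type log2 difference of 0.34 did not pass (adjusted p = 0.297).

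The receptors Tnfrsf26, Tnfrsf22 and Tnfrsf23 lie in a row on chromosome 7, separated by 6.08 and 16.1 kb with no other protein-coding gene between, and the latter 2 are decoy receptors of TRAIL in mouse. Tnfrsf23 was at 0.462 and 0.605 FPKM in WT sham, 1.13 and 1.16 after TAC in WT, 0.725 and 0.758 in Cko sham, and 1.30 and 0.862 after TAC in Cko. It rose 1.42-fold in the average (log2 fold change 0.50, SE 0.137, limma adjusted p = 0.0343) and kept that call in 1 of the 8 fits that left out 1 library, the one without Cko TAC replicate 2 (adjusted p up to 0.104). Tnfrsf22 was at 0.717 and 0.936 FPKM in WT sham, 1.38 and 1.32 after TAC in WT, 1.49 and 1.27 in Cko sham, and 1.56 and 1.15 after TAC in Cko. Tnfrsf26 was at 0.153 and 0.110 FPKM in WT sham, 0.936 and 0.440 after TAC in WT, 0.487 and 0.386 in Cko sham, and 0.539 and 0.414 after TAC in Cko. For both, the WT sham libraries were the lowest of the 8. Their wild-type log2 differences of 0.48 and 0.88 did not pass (adjusted p = 0.113 and 0.0534).

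Among the receptors of the B cell ligands BAFF and APRIL, Tnfrsf13b (TACI) was called in the average. It reached 0.5 FPKM in 1 sham and 4 TAC libraries, so its test also carries the selection by the filter. It was at 0.347 and 0.398 FPKM in WT sham, 0.986 and 0.759 after TAC in WT, 0.552 and 0.461 in Cko sham, and 1.89 and 0.857 after TAC in Cko. It rose 1.68-fold (log2 fold change 0.75, SE 0.194, limma adjusted p = 0.0299) but kept its call in 2 of the 8 fits that left out 1 library, those without WT TAC replicate 2 or Cko TAC replicate 2 (adjusted p up to 0.0917). Cko TAC replicate 1 had the highest Tnfrsf13b and the highest macrophage marker sum (988 FPKM). WT TAC replicate 1 had the highest B and plasma cell marker sum, mostly of Igkc. The part of either sum was not tested. BCMA (Tnfrsf17) was at 0 and 0.173 FPKM in WT sham, 0.198 and 0.139 after TAC in WT, 0.881 and 0.481 in Cko sham, and 0 and 0.284 after TAC in Cko, on at most 11 reads a library. BAFF (Tnfsf13b) was at 0.543 and 0.328 FPKM in WT sham and at 0.213 to 0.278 FPKM in the other 6 libraries, and the BAFF receptor Tnfrsf13c at 0 to 0.160 FPKM. APRIL (Tnfsf13) ranged from 0.232 to 1.04 FPKM, was called in no comparison, and shares 60.0% of its 1637 exon bases with Tnfsfm13.

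The textbook pairs LIGHT with HVEM and TL1A with death receptor 3 were each represented by the receptor. HVEM (Tnfrsf14) was at 1.37 and 2.11 FPKM in WT sham, 2.99 and 2.36 after TAC in WT, 1.73 and 2.77 in Cko sham, and 2.75 and 1.93 after TAC in Cko, with a wild-type log2 difference of 0.52 that did not pass (limma adjusted p = 0.209). LIGHT (Tnfsf14) was at 0.0762 and 0 FPKM in WT sham, 0.146 and 0.429 after TAC in WT, 0.141 and 0.318 in Cko sham, and 0.646 and 0.157 after TAC in Cko. Death receptor 3 (Tnfrsf25) was at 2.41 and 4.12 FPKM in WT sham, 1.49 and 1.57 after TAC in WT, 3.325 and 1.52 in Cko sham, and 1.05 and 1.86 after TAC in Cko. Both WT TAC libraries were below both WT sham libraries, but its log2 difference of -0.85 (SE 0.359) did not pass (adjusted p = 0.144). TL1A (Tnfsf15) had 1 read in each WT TAC library and none in the other 6.

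Of the other tested members, the orphan receptor Tnfrsf19 (TROY) had the lowest wild-type p among those with negative values. It was at 1.05 and 0.788 FPKM in WT sham, 0.227 and 0.407 after TAC in WT, 0.386 and 0.731 in Cko sham, and 0.481 and 0.367 after TAC in Cko, and its log2 difference of -0.80 (SE 0.238) in wild type did not pass (limma adjusted p = 0.0628). With limma-voom on the recovered reads Tnfrsf19 was called in wild type, and no other setting called it there. Tnfrsf19 is named here after its values were seen. Tnfrsf21 was at 5.68 and 4.05 FPKM in WT sham, 3.87 and 6.98 after TAC in WT, 6.02 and 7.23 in Cko sham, and 5.40 and 6.16 after TAC in Cko, with overlapping groups in both genotypes. Tnfsf9, a costimulatory ligand of T cells, ranged from 0.253 to 1.22 FPKM and was called in no comparison.

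Genotype made no called difference in any member. Under sham, no member passed between Cko and WT (0.0215% of all tested genes did, 3 genes). An unadjusted p under 0.05 was reached by 7.68% of all tested genes and by 3 members (15.8%). These were Tnfsf10, with a log2 difference of 1.10 (95% interval 0.64 to 1.57, limma adjusted p = 0.261), Tnf with 0.89 (0.14 to 1.64, adjusted p = 0.565) and Tnfrsf22 with 0.50 (0.08 to 0.93, adjusted p = 0.566). In each of the 3, both Cko sham libraries were above both WT sham libraries. Under TAC, no member and no gene passed (0%), and 2 members had an unadjusted p under 0.05: Tnfsf12 with 0.55 (0.15 to 0.94, adjusted p = 0.508) and Tnfrsf12a with -0.65 (-1.22 to -0.08, adjusted p = 0.532). Tnfsf10 came next with 0.39 (-0.08 to 0.85, adjusted p = 0.601). Library counts of 2 per group left wide intervals, so a missed threshold does not show that the genotypes were alike.

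The response to TAC was also compared between genotypes directly, as the Cko response minus the WT response. No member passed (0.00718% of all tested genes did, 1 gene). An unadjusted p under 0.05 was reached by 4.77% of all tested genes and by 3 members (15.8%). They were Tnfsf10 at -0.72 (95% interval -1.38 to -0.06), Tnfrsf12a at -0.85 (-1.66 to -0.04) and Tnfrsf26 at -0.82 (-1.62 to -0.02), each with a limma adjusted p of 0.911. The value was -0.95 (-2.01 to 0.11) for Tnf and 0.85 (-0.29 to 1.99) for Tnfrsf11b. The calls made in one genotype and missed in the other are therefore not shown to differ. No alternative setting, limma-voom included, called a member in a genotype comparison or in the interaction.

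Of 14 family members under other symbols, 8 were tested, and in the average 2 rose and 1 fell; with 11.9% of all tested genes higher and 13.5% lower, counts this small are given as a description. Fas, a death receptor, fell: it was at 12.7 and 17.02 FPKM in WT sham, 6.15 and 7.74 after TAC in WT, 9.50 and 11.6 in Cko sham, and 6.05 and 8.74 after TAC in Cko. All 4 TAC libraries were below all 4 sham libraries, with a log2 fold change of -1.04 (SE 0.225, limma adjusted p = 0.0298) in wild type and -0.77 (SE 0.159, adjusted p = 0.0146) in the average. Cd40, a costimulatory receptor, rose by 0.50 (adjusted p = 0.0483) and the ectodysplasin receptor Eda2r by 0.41 (adjusted p = 0.0474) on that scale. In Cko alone none passed, with Fas at -0.50 (adjusted p = 0.246) and Ltbr at 0.27 (adjusted p = 0.281). None of the 3 calls in the average held in all 8 fits that left out 1 library. Lta, Fasl, Cd40lg and Cd70 were at 0 in at least 1 library.

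Downstream, of 35 tested receptor-proximal adaptors and death genes, 6 rose and 3 fell in the average (median log2 fold change 0.17; all genes 0.01). These counts lie near the shares over all tested genes, 11.9% higher and 13.5% lower, and are no result about the list. On the log2 scale, the necroptosis kinase Ripk3 rose by 0.71 (limma adjusted p = 0.0129), the initiator caspase Casp8 by 0.67 (adjusted p = 0.0139) and the necroptosis effector Mlkl by 0.87 (adjusted p = 0.0144). The 3 that fell were Map3k5, Tab1 and Birc2, named after their values were seen. In wild type Tab1 fell (-0.55, adjusted p = 0.0436), and in Cko Ripk3 rose (1.27, adjusted p = 0.0365). Ripk3 was at 2.39 to 3.08 FPKM in sham, 2.58 and 4.05 in WT TAC, and 6.602 and 7.25 in Cko TAC, but its interaction of 1.13 did not pass (adjusted p = 0.911). None of the 6 genes named here passed in the average in all 8 fits that left out 1 library.

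All 15 NF-kappaB subunits, inhibitors and kinases were tested, and 5 rose and none fell in the average (median 0.06), where 11.9% of all tested genes rose and 13.5% fell. Bcl3, an atypical inhibitor family member, rose by 0.92 on the log2 scale (limma adjusted p = 0.00468) and the inhibitor Nfkbie by 0.69 (adjusted p = 0.0109). The subunits Rel and Nfkb1 rose by 0.45 and 0.29 (adjusted p = 0.0302 and 0.0447). Bcl3 was at 2.53 to 3.77 FPKM in the 4 sham and 5.33 to 6.93 FPKM in the 4 TAC libraries. In wild type Bcl3 and Nfkbie passed (1.10 and 0.73, adjusted p = 0.0169 and 0.0419), and in Cko neither did (0.73 and 0.66, adjusted p = 0.0755 and 0.0996). Bcl3 and Nfkbie were the 2 of the 5 that passed in the average whichever library was left out.

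Of 8 genes for shedding of ligands and receptors, 3 rose and none fell in the average (median 0.26), against 11.9% and 13.5% of all tested genes. The protease Adam10 rose by 0.62 on the log2 scale (limma adjusted p = 0.00809), the protease inhibitor Timp3 by 0.75 (adjusted p = 0.0263) and Adam17, which releases TNF, by 0.33 (adjusted p = 0.0298). Adam10 was the 1 of these to pass in wild type (0.83, adjusted p = 0.0208) and the 1 that passed in the average whichever library was left out. None passed in Cko, where Adam10 was at 0.41 (adjusted p = 0.162) and Adam17 at 0.26 (adjusted p = 0.273).

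Of 26 textbook targets of NF-kappaB, 23 were tested, and 8 rose and 1 fell in the average, beside 11.9% and 13.5% of all tested genes (median log2 fold change 0.74; all genes 0.01). The chemokine gene Cxcl10 was at 0.375 and 0.751 FPKM in WT sham, 4.06 and 2.39 after TAC in WT, 0.551 and 0.435 in Cko sham, and 5.44 and 3.39 after TAC in Cko. It rose in wild type (log2 fold change 1.795, limma adjusted p = 0.0189), in Cko (2.28, adjusted p = 0.0296) and in the average (2.04, adjusted p = 0.00288). The monocyte chemokine Ccl2 rose by 2.00 (adjusted p = 0.0128) and the hyaluronan-binding Tnfaip6 by 0.87 (adjusted p = 0.0139) in the average. Sod2, a mitochondrial antioxidant enzyme that heart muscle also makes in quantity, fell by 0.58 (adjusted p = 0.0103), and in wild type Sod2 (-0.67, adjusted p = 0.0324) and Bcl2l1 (-0.81, adjusted p = 0.0351) fell. Cxcl10 and Sod2 passed in the average whichever library was left out, and the other 7 did not. The summed macrophage markers, of which all 9 were called higher in the average (2 to 9 when 1 library was left out), moved with the same libraries. The cardiomyocyte marker sum was lower in them. Of its 7 markers, 5 were called lower in the average (3 to 5 when 1 library was left out). Ryr2 (-0.20) and Actc1 (0.09) were not called. The part of either cell type in these results was not tested. No gene of the 5 lists passed in a genotype comparison or in the interaction; the smallest adjusted p was 0.266 under sham (Irf1, log2 difference 0.75) and 0.449 under TAC (Ripk3, 0.99).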

How the data were processed

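Heart RNA was taken up in Trizol and made into libraries with a NEBNext Ultra kit, per the labels' protocols. Tools named by the submitters' processing notes are featureCounts 1.5.0-p3, Bowtie 0.12.2 and CASAVA 1.8; mm10 and mm8 are the named builds, and their roles are not stated. The strand setting is not given in the sources used here. The authors deposited 1 table of 8 libraries whose values are FPKM. Multiplied by gene length, 100% of the values above 0 were whole multiples (within 0.01 of a read) of a step fixed for each library, which gave back the reads and a library size 0.886 to 1.10 times their total. All 32 members had the coordinates of GENCODE M21 (GRCm38, also called mm10).

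Groups follow the labelled genotype and surgery. A gene entered the test with 0.5 FPKM and 10 recovered reads or more in 2 libraries, as log2(FPKM + 0.5) with limma 3.58.1 in R 4.3.3, with 1 term per group, all 8 libraries, 4 residual degrees of freedom, an intensity trend and robust moderation. The 6 comparisons set TAC against sham (in WT, in Cko and averaged), Cko against WT under each surgery, and the interaction; p-values are two-sided and Benjamini-Hochberg adjusted over 13928 genes, with a threshold of 0.05. Every fold change is of FPKM + 0.5. The steps were tested on 5 simulated draws of the wild-type comparison, with 200 changed genes and the same spread (dispersion 0.0138) for every gene. Of 2-fold changes 78.9% were recovered, and of 4-fold changes 97.1%, with 18 unchanged genes called per draw. The draws do not measure the error for genes that vary more. Libraries of a group differed by more than counting noise (chi-square per degree of freedom 17.9 to 46.6).

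The members, gene lists and marker lists were chosen with earlier results of these data known. Named with all values were Tnfrsf12a, Tnfrsf11b, each member that passed, the 3 with the smallest p per comparison, the textbook ligand and receptor pairs and the 5 highest; from a list, at most 4 genes that passed per comparison, or the 2 with the smallest p. Alternatives were pseudocounts of 0.1 and 1, no filter, a filter of 1 FPKM, 2 other scalings, limma-voom on the recovered reads, protein-coding genes alone, 4 libraries alone, the replicate block, each library left out and, chosen after seeing the data, 2 sets of libraries left out together. Protein sequences were not used here. One gene of the adaptor and death list is counted in that list but not reported here.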

Additional observations from a re-analysis of the deposited data

How the results depend on the processing

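The count of members called for TAC against sham was 5 in wild type, 1 in Cko and 7 in the average. In wild type it became 1 without the filter, 3 with a filter of 1 FPKM and 1 with the 4 libraries alone. It was 7 with scaling to library totals, with limma-voom or with protein-coding genes alone. The limma-voom calls included Tnfrsf19, whose value was negative. In Cko it was 0 with a pseudocount of 1 FPKM, no filter or a filter of 1 FPKM, and 2 with scaling to library totals, which added Tnfrsf1a. In the average it was 4 with no filter, 5 with a filter of 1 FPKM and 10 with scaling to library totals. Leaving out 1 library gave 0 to 5 in wild type, 0 to 2 in Cko and 4 to 8 in the average. With replicate 1 dropped from both WT groups it was 0, 1 and 3, and without the 3 libraries of low Dbp 0, 0 and 2; the cause of these losses was not tested.

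Over all genes the counts in wild type, Cko and the average were 1842, 208 and 3537. With no filter they were 247, 0 and 1927. In Cko they were 513 with library totals, 382 with limma-voom and 379 with protein-coding genes alone; the 4 libraries alone gave 272 in wild type and 397 in Cko. Leaving out 1 library gave 74 to 2113, 0 to 378 and 1329 to 3672. Without both WT replicate 1 libraries they were 1, 397 and 1796, and without the 3 libraries of low Dbp 67, 24 and 518. For Cko against WT under sham the count of 3 became 1 with no filter and 1 to 4 with 1 library left out. Under TAC the count of 0 became 1 with a filter of 1 FPKM, with the 4 libraries alone and in both added sets, and 0 to 18 with 1 library left out. For the interaction, 1 became 2 with no filter or a filter of 1 FPKM, 3 without the libraries of low Dbp and 1 to 3 with 1 library left out.

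Among single members in the Cko comparison, Tnfsf10 (0.03) became -0.014 without Cko sham replicate 2 and ranged from -0.12 (without Cko TAC replicate 2) to 0.17 with 1 library left out. Tnfsf12 (-0.16) became 0.039 with library totals and ranged from -0.34 to 0.018 (without Cko TAC replicate 1). Tnfrsf14 in the average became -0.041 without the libraries of low Dbp. None of these had passed. Of the other values for single genes, 976 kept direction and side of the threshold, 88 no longer passed and 22 newly passed.

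Replicate numbers are shared by the groups, but deviations of replicate 1 correlated at 0.0256 to 0.248 across genes between groups. All 6 correlations were positive but only 2 were over 0.1, so the numbers were not taken as a pairing, and a shared origin of some libraries was not tested. The replicate block called 7, 1 and 8 members and 2187, 236 and 3748 genes in the same order, adding Tnfrsf11b and Tnfrsf26 in wild type and Tnfsf10 in the average. Depth limits the members with few reads, and 2 libraries per group limit all calls.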
